A study of Mus musculus with 14 samples.

Results

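Small leucine-rich proteoglycans (SLRPs) were followed in wounded mouse tail fibroblasts with and without autologous micrograft (AMG). The 8 genes Dcn, Bgn, Aspn, Lum, Fmod, Prelp, Omd and Ogn were chosen by symbol, as the SLRPs of collagen-rich connective tissue, and all 8 were listed among the 43472 genes of both deposited tables. The cells were primary fibroblasts released by collagenase IV from the tail tip of C57BL/6 mice and grown as a monolayer that was scratched. AMG is a filtered, cell-depleted preparation made by mincing mouse skin and was applied at 1:10 in medium, and untreated cells were wounded but received none. Replicate 1 gave 1 untreated and 1 AMG-treated library at each of 1, 5, 12 and 24 h, and replicates 2, 3 and 4 gave 1 library of each arm at 5 h. The labels do not state whether replicates were separate animals or cultures, so p-values measure only the spread between these samples.

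SLRPs are short secreted proteins built of leucine-rich repeats that lie along collagen fibrils in skin, tendon, cartilage and bone. They control the spacing and thickness of fibrils, and several bind transforming growth factor beta and other growth factors. By sequence they fall into class I (decorin, biglycan, asporin), class II (lumican, fibromodulin, PRELP, osteomodulin) and class III (osteoglycin). Decorin and biglycan carry chondroitin or dermatan sulfate chains, and lumican, fibromodulin and osteoglycin can carry keratan sulfate. Most SLRP genes stand in clusters on the chromosomes, next to one another.

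Depth ran from 12545537 to 34696529 reads in genes over the 14 libraries. Normalised counts below are read counts that the authors divided by a size factor per library, separately for replicate 1 and for replicates 2 to 4, so levels were not compared between those 2 tables. The mesenchymal markers Col1a1, Col1a2, Col3a1 and Vim were high in every library, between 19138 and 278572 normalised counts. Other markers of the same fibroblast list were low. In replicates 2 to 4 Fap had 8.80 to 37.6 counts, Pi16 3.25 to 15.3, Dpt 33.6 to 178 and Postn 77.9 to 1356. The epidermal genes Krt1, Dsg3 and Flg had 0 reads in all 14 libraries, and Krt5 and Krt14 had 0 in the 6 libraries of replicates 2 to 4. The other 5 of the 10 keratinocyte markers had reads, led by Krt10, and the list summed to 32.0 to 72.6 normalised counts in replicates 2 to 4 and to 55.9 to 239 in replicate 1. Transcripts of tendon (Thbs4, 632 to 3990 normalised counts in replicates 2 to 4) and of cartilage (Col2a1, 200 to 21940) were also present, so the label of fibroblasts covers cultures with other mesenchymal transcripts. Of the same tissues, the tendon marker Kera stayed at most at 6.78 and the cartilage marker Acan at most at 34.6 in those libraries. In bulk RNA, fewer cells of a type and less RNA per cell cannot be told apart.

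Bgn, which encodes biglycan, was by far the most abundant of the family. The 8 genes together took 0.271% to 0.799% of all reads of a library, and Bgn alone took 0.232% to 0.607%. Exact 95% binomial intervals reached at most 0.00464 percentage points to either side, counting error only. On levels per kilobase of the principal transcript, Bgn made up 56.8% to 90.5% of the summed SLRP level in replicates 2 to 4 and 86.9% to 91.2% in replicate 1. Bgn ranked between 7 and 81 among all genes per kilobase.

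In the 3 untreated 5 h libraries of replicates 2 to 4 the order of mean levels per kilobase was Bgn at 36102 ± 9345 (SD, n = 3), Prelp at 7640 ± 3451, Fmod at 2358 ± 1809, Dcn at 1930 ± 1083, Lum at 1123 ± 1306, Ogn at 1086 ± 716, Aspn at 38.5 ± 26.0 and Omd at 14.5 ± 10.0. Bgn, Prelp and Fmod did not overlap from one to the next. Ogn and Aspn did not overlap either. Fmod, Dcn, Lum and Ogn had overlapping ranges among neighbours in this order, as had Aspn and Omd, so their order is not larger than the spread. With lengths taken over all exons of a gene in place of the principal transcript, Dcn stood between rank 3 and rank 6 of the 8 in single libraries of replicates 2 to 4, in place of 3 to 4. Decorin mRNA, which Dcn encodes, was 1.78 to 11.4 per 100 of Bgn per kilobase in these untreated libraries.

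The replicates differed more from each other in SLRP levels than AMG and untreated cells did at 5 h. Lum, encoding lumican, which limits fibril thickness in skin and cornea, had 6374, 333 and 1539 normalised counts in untreated replicates 2, 3 and 4. That is a 19.15-fold range. Fmod, encoding fibromodulin, a fibril regulator of tendon, had 11413, 913 and 9748, a 12.5-fold range. In both genes replicate 3 was the lowest library in each arm.

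Ogn ranged 5.78-fold and Omd 7.11-fold between the untreated replicates, Dcn 3.76-fold, Aspn 3.53-fold and Prelp 2.76-fold. The lowest Omd value, in replicate 3, rests on 5 reads. The median tested gene ranged 1.35-fold. Bgn spread least, at 1.70-fold, and was highest in replicate 3, where Dcn, Lum, Fmod, Prelp, Omd and Ogn were lowest. The standard deviation of log2 levels over the untreated replicates was larger for Lum (2.13) than for 98.9% of the 13096 genes tested and larger for Fmod (2.04) than for 98.8% of them.

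Markers of other mesenchymal tissues also differed between these replicates. The 10 tendon markers summed to 13087, 5731 and 8818 normalised counts in untreated replicates 2, 3 and 4, and 9 of 10 reached a mean of 10. The 10 cartilage markers, of which 5 reached it, summed to 23249, 785 and 3178. Over the libraries of replicates 2 to 4 Col2a1 reached 21940 counts, Hapln1 1767, Sox9 312 and Acan 34.6, with the rest of that list lower. Replicate 3 was the lowest in both sums, in both arms. It was also the lowest in the sum of the 10 bone markers, at 73245, 19091 and 26078. Spp1 gave most of the bone sum, reaching 69291 counts, and Bglap and Bglap2 had 0 in replicates 2 to 4. Replicate 3 was the highest in the sum of the 10 skeletal muscle markers, at 3164, 7720 and 7000. Acta1, at 1735 to 7289 counts, gave most of the muscle sum, whereas Myh1 and Myh4 had 0 and Ckm at most 1.27. Whether cells of these tissues were present, and their part in the SLRP levels, was not tested. Matn1 and Snorc of the cartilage list had 0 reads in replicates 2 to 4. Of the other marker lists, 11 of 12 fibroblast, 5 of 10 bone, 2 of 10 keratinocyte, 3 of 10 skeletal muscle, 6 of 10 leukocyte, 2 of 8 endothelial and 3 of 8 adipocyte markers reached a mean of 10.

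**Figure D1:**
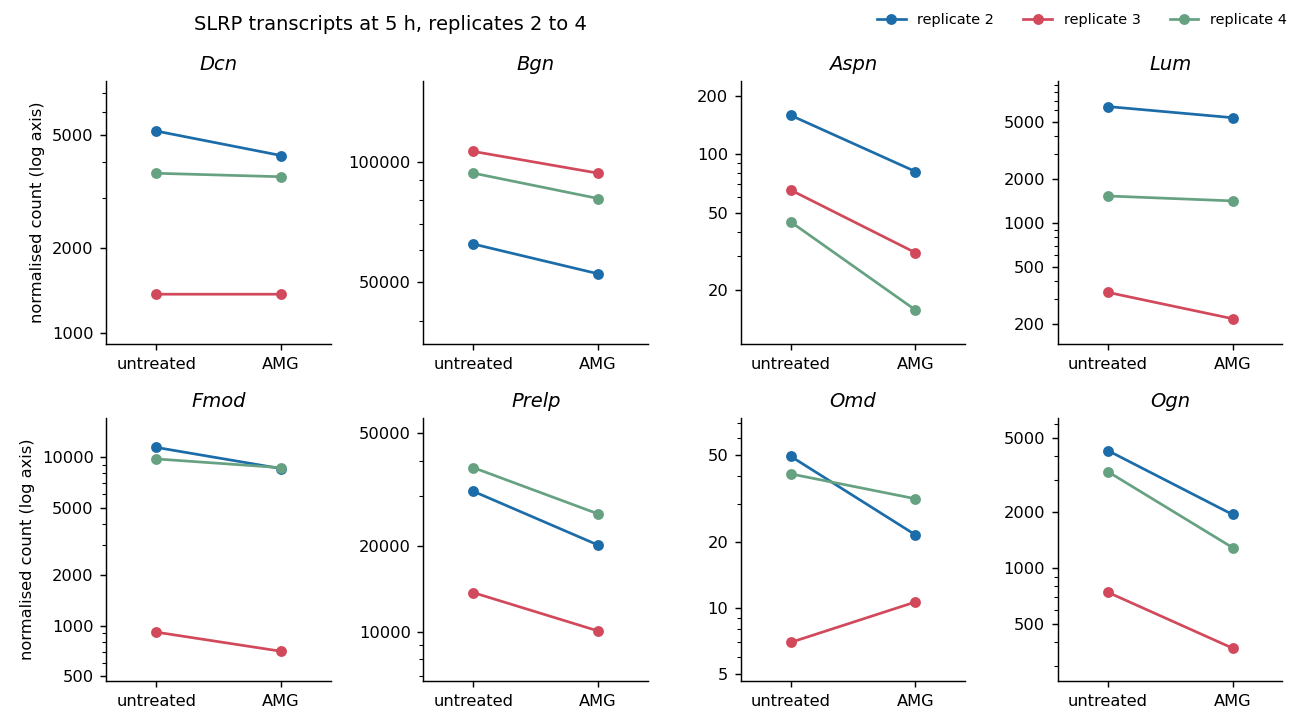
Normalised counts (log axis) of each SLRP transcript at 5 h in untreated and AMG-treated cells of replicates 2, 3 and 4, with lines joining libraries of the same replicate number. Lines of Bgn, Lum, Fmod, Ogn, Aspn and Prelp slope down in all 3 replicates, and the fold distance between replicates is widest for Lum and Fmod.

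The first comparison asked whether AMG changed SLRP transcript levels at 5 h. Without regard to the replicate number, none of the 8 passed an adjusted p of 0.05 with limma, with 0 higher and 0 lower, and 0 members passed an unadjusted p of 0.05. On recovered reads edgeR and DESeq2 without the block called 0 of the 8 as well. Among all 13096 genes 1.24% passed, 0.97% as higher and 0.267% as lower. The AMG and untreated values overlapped for all 8 genes. All 8 point estimates were below 0, with a median log2 fold change of -0.32, beside -0.02 over all genes tested. Leaving out 1 library turned 5 of the 8 estimates above 0: Dcn, Lum, Fmod and Omd without untreated replicate 2 or without AMG replicate 3, Dcn, Fmod and Omd also without untreated replicate 4, and Bgn without AMG replicate 2. Ogn, Aspn and Prelp stayed below 0 in all 6 such fits.

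Libraries of the same number deviated together, with r = 0.65, 0.76 and 0.70 for replicates 2, 3 and 4 across genes. With the replicate number as a block, limma called 5 of 8 genes lower (Ogn, Aspn, Prelp, Fmod and Lum) and 0 higher. In that fit 19.3% of all genes were lower and 37.2% passed in either direction, 17.9% as higher. Bgn, Lum, Fmod, Ogn, Aspn and Prelp were below the untreated value in all 3 pairs, as were 34.5% of all genes.

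Several marker lists had lower sums with AMG in the same pairs. In replicates 2, 3 and 4 the tendon markers summed to 9149, 5212 and 6827 normalised counts with AMG, and the cartilage markers to 12994, 580 and 1751. The skeletal muscle markers summed to 1942, 5853 and 4637 with AMG. Each sum was below the untreated sum of its pair, while 34.5% of all single genes were below in all 3 pairs. Acta1 gave most of the muscle sums, and Myh1 and Myh4 had 0 reads in these replicates. The fibroblast markers summed to 620956, 484972 and 670630 untreated and to 409027, 411601 and 528861 with AMG. With the block 5 of 9 tendon, 6 of 11 fibroblast, 2 of 5 cartilage and 1 of 3 skeletal muscle markers tested were called lower, and 1 tendon and 1 fibroblast marker higher. Of the other lists, 2 of 5 bone, 1 of 2 keratinocyte, 1 of 2 endothelial, 2 of 3 adipocyte and 0 of 6 leukocyte markers were lower. In addition 1 bone, 1 endothelial and 1 adipocyte marker were higher. Among all genes 19.3% were lower and 17.9% higher in that fit, and the shorter lists hold too few genes to set against these shares. The bone markers, at 67405, 19844 and 23327 with AMG, did not share a direction over the pairs. Whether cells of these tissues were present, and their part in the SLRP differences, was not tested.

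Ogn, encoding osteoglycin, a class III SLRP of bone, tendon and vessel wall, had the smallest p of the 8 in the blocked fit. Its counts were 4302, 745 and 3314 in untreated replicates 2, 3 and 4, and 1949, 373 and 1294 with AMG. Each AMG library was below its own untreated library, and AMG replicate 2 was above untreated replicate 3, so the groups overlapped. The log2 fold change was -1.16, with an SE of 0.82 and an adjusted p of 0.419 without the block, and an SE of 0.10 and an adjusted p of 8.15e-05 with it (limma). In the blocked fit Ogn ranked 121 among 13096 genes by p.

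Aspn, encoding asporin, a class I SLRP of periodontal ligament and cartilage that binds transforming growth factor beta, was low in level but fell by a similar factor. Its counts were 158, 65.4 and 44.9 untreated and 81.4, 31.2 and 15.8 with AMG. All 3 pairs were lower with AMG. On the log2 scale the difference was -1.15, with an SE of 0.69 and a limma adjusted p of 0.352, and with the block its 95% interval was -1.72 to -0.58 (adjusted p = 0.00801).

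Prelp, encoding a proline- and arginine-rich SLRP that links collagen to heparan sulfate, was lower by a smaller factor. Its counts were 31248, 13728 and 37876 untreated and 20196, 10055 and 26013 with AMG. The paired log2 ratios were -0.63, -0.45 and -0.54, and their SD of 0.09 was among the lower ones, with 13.4% of genes below it. The mean of -0.54 had an adjusted p of 0.522 in limma without the block and 0.00306 with it.

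Fmod went from 11413, 913 and 9748 untreated to 8542, 703 and 8650 with AMG. Lum went from 6374, 333 and 1539 to 5340, 219 and 1423. Both had a log2 fold change of -0.32. Their adjusted p in limma was 0.904 and 0.912 without the block and 0.0213 and 0.0481 with it, and Lum lay close to the threshold.

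Bgn, Dcn and Omd passed in neither fit. Bgn had 62242, 106116 and 93636 counts untreated and 52437, 93617 and 80909 with AMG. Its log2 fold change of -0.21 had a 95% interval of -0.47 to 0.04 with the block (limma adjusted p = 0.167). Dcn had 5151, 1372 and 3657 untreated and 4224, 1372 and 3556 with AMG. Its log2 fold change was -0.11, with an interval of -0.32 to 0.10 and an adjusted p of 0.387 (limma, block). Omd, encoding osteomodulin, a keratan sulfate SLRP of bone, had 49.5, 6.96 and 41.1 untreated and 21.6, 10.7 and 31.6 with AMG. Its pairs went in both directions, and the interval of -1.25 to 0.60 was the widest of the 8 (limma adjusted p = 0.563 with the block). The replicate 3 pair, the one that was higher with AMG, rests on 5 reads untreated and 13 with AMG.

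The blocked calls rested in part on single pairs and on the test. In fits added after the data were seen, Ogn and Prelp passed without the pair of replicate 2, Ogn, Aspn, Prelp and Fmod without that of replicate 3, and Ogn, Aspn, Prelp and Lum without that of replicate 4. The share of all genes called in those fits was not taken, so their calls have no background to be read against. Over the 4 replicates of 5 h, edgeR with the replicate block called only Aspn lower of the 8 (adjusted p = 0.0343), where 1.29% of all genes were lower, and Ogn had an adjusted p of 0.0529. On replicates 2 to 4, edgeR with the block called 4 of the 8 lower (Ogn, Aspn, Prelp and Fmod), beside 18.6% of all genes, and limma with a length correction and the block called the 5 again, beside 16%.

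Replicate 1 at 5 h was lower with AMG for Aspn, Ogn, Lum, Dcn and Omd, 5 of 8 where 50.2% of all genes were lower and 49.8% higher. It was higher for Bgn, Prelp and Fmod. The pairs of replicates 2 to 4 had not shared a direction for Dcn and Omd. Aspn had 300.0 counts untreated and 92.8 with AMG, and its log2 ratios over replicates 1 to 4 were -1.68, -0.95, -1.05 and -1.45. Ogn had 1400 and 1095, with ratios of -0.35, -1.14, -0.996 and -1.36. Aspn, Ogn and Lum were lower with AMG in 4 of 4 replicates, as were 16% of the 12844 genes with a mean of 10 in both tables. After a correction for a trend on exon length the replicate 1 ratio was -0.0016 for Ogn and 0.16 for Lum, against -1.27 for Aspn, so for Ogn and Lum that library pair did not hold its direction.

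Bgn had 52609 counts in untreated cells of replicate 1 at 5 h and 93104 with AMG, a log2 ratio of 0.82. Prelp had 2636 and 4790 (0.86), and Fmod had 3381 and 4693 (0.47). The untreated 5 h library was the lowest of the 4 untreated libraries of replicate 1 for these 3 genes. In this library pair log2 ratios rose with exon length across genes (Spearman's rho 0.42), whereas rho was -0.32, -0.21 and -0.39 in replicates 2, 3 and 4. The length-corrected ratios of Bgn, Prelp and Fmod were 0.62, 0.97 and 0.64.

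**Figure D2:**
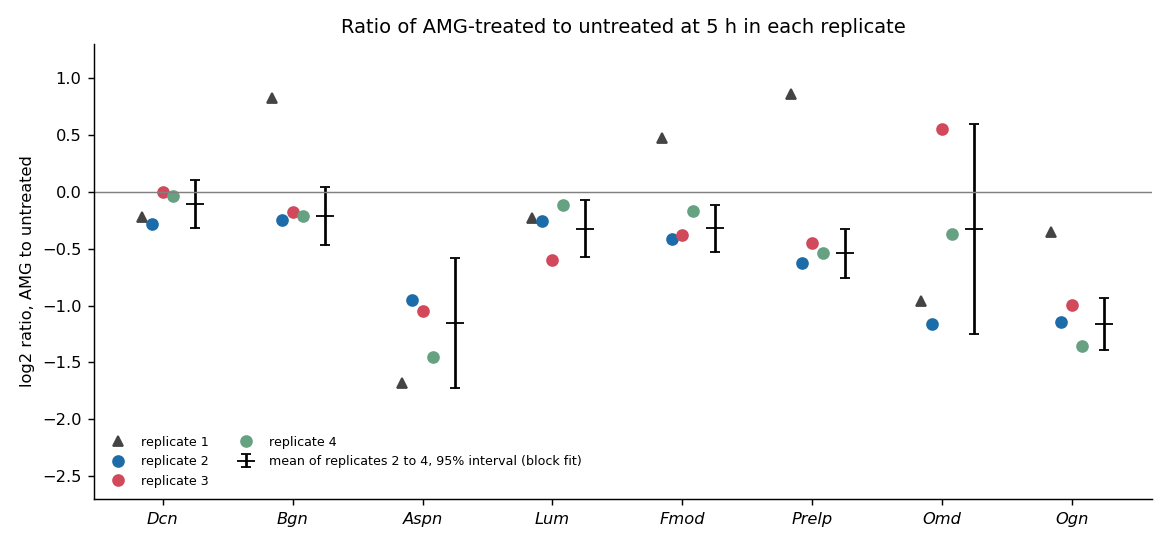
Log2 ratio of AMG-treated to untreated normalised counts (+ 1) at 5 h for each SLRP transcript in replicates 1 to 4, with the mean of replicates 2 to 4 and its 95% interval from the blocked limma fit. Aspn, Ogn and Lum lie below 0 in all 4 replicates, and replicate 1 lies above 0 for Bgn, Fmod and Prelp.

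Within a library the proportions of the family can be read without a size factor. Prelp stood at 33.6, 8.66 and 27.1 per 100 of Bgn per kilobase in untreated replicates 2, 3 and 4 and at 25.8, 7.19 and 21.5 with AMG. Ogn stood at 6.52, 0.662 and 3.34 untreated and at 3.50, 0.376 and 1.51 with AMG. In replicate 1 at 5 h Ogn went from 2.51 untreated to 1.11 with AMG, so Ogn was lower relative to Bgn in all 4 pairs. In that pair Bgn itself was higher with AMG, at 52609 counts untreated and 93104 with AMG, while Ogn had 1400 and 1095. The share of all genes lower relative to Bgn was not taken. Prelp in that pair was at 3.35 untreated and 3.44 with AMG. Lum relative to Bgn was 10.1, 0.310 and 1.62 untreated and 10.1, 0.231 and 1.74 with AMG, and here the pairs did not share a direction.

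**Figure D3:**
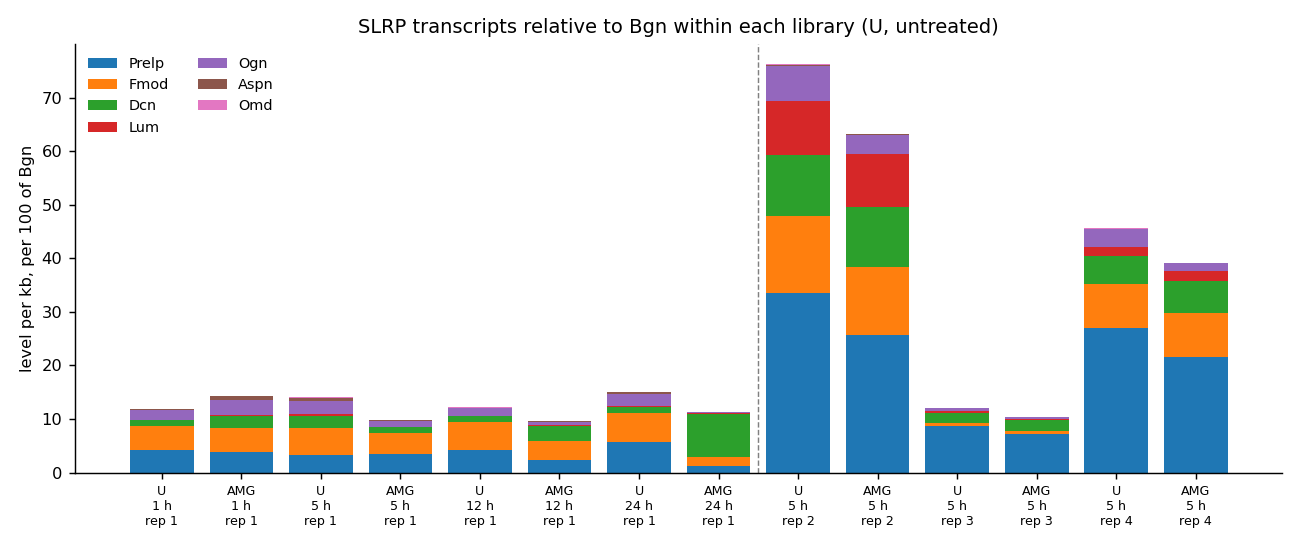
Levels per kilobase of the other 7 SLRP transcripts, stacked, per 100 of Bgn in each of the 14 libraries (U, untreated; the dashed line parts replicate 1 from replicates 2 to 4). Replicates 2 and 4 hold the most Prelp and Fmod relative to Bgn, and the AMG-treated 24 h library of replicate 1 is mostly Dcn.

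The second comparison followed replicate 1 over time, with 1 library per arm and time and therefore no test. At 1 h 5 of 8 genes were higher with AMG and 3 lower, with a median log2 ratio of 0.24, and 47% of all genes were higher and 53% lower. With reads per library total or after length correction this became 4 higher and 4 lower, with medians of 0.029 and 0.034, as Ogn turned to -0.12 and -0.16. At 12 h the median was -0.66, with 6 lower and 2 higher, and 51% of all genes were lower and 48.9% higher. At 24 h it was -2.31, with 7 lower and 1 higher, and 48.4% of all genes were lower and 51.6% higher. Medians over all genes were -0.06, -0.01 and 0.02 at these times.

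At 24 h 5 of the 8 (Ogn, Aspn, Omd, Prelp and Fmod) had a log2 ratio below -1, as had 8.05% of 13498 genes, and 1 (Dcn) had a ratio above 1, as had 6.05%. At 12 h 2 of the 8 (Ogn and Prelp) were below -1, beside 6.9% of genes. Dcn was again the only member above 1, beside 5.93%. Ogn and Prelp were below -1 at both times, as were 4.01% of all genes, and Dcn was above 1 at both, as were 3.46%.

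Ogn in untreated cells stayed between 1349 and 2417 counts over the 4 times. With AMG it was 2097, 1095, 469 and 105 counts in time order. At 24 h untreated cells held 22.9 times the AMG level (exact 95% counting interval 19.1 to 27.8), on 3156 and 117 reads. Its log2 ratio of -4.51 stood at rank 22 from the lowest of 13498 genes at that time.

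Aspn was 429 counts with AMG at 1 h, against 212 untreated, and then 92.8, 72.4 and 9.90 at 5, 12 and 24 h, against 300.0, 136 and 245 untreated. The untreated level at 24 h was 24.8 times that with AMG (interval 13.6 to 50.1), on 320 and 11 reads. Its log2 ratio of -4.50 was next to that of Ogn, at rank 23 from the lowest.

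Omd followed the same order at the edge of detection. It had 66.1, 24.0, 21.0 and 2.70 counts with AMG at 1, 5, 12 and 24 h, and 21.1, 47.5, 31.5 and 49.8 untreated. The AMG value at 24 h was 3 reads, which is the floor set for a library, against 65 untreated, a ratio of untreated to AMG of 18.4 with a counting interval of 6.03 to 91.7.

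Prelp with AMG was 4126, 4790, 2794 and 1478 counts over the 4 times, against 6685, 2636, 5841 and 8296 untreated. Fmod was 4114, 4693, 3572 and 1600 with AMG and 6045, 3381, 6052 and 7010 untreated. At 24 h the untreated level was 5.61 times that with AMG for Prelp (interval 5.33 to 5.92) and 4.38 times for Fmod (4.16 to 4.61). Both genes were higher with AMG at 5 h and lower at 1, 12 and 24 h.

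Dcn ran the other way. It was 846, 883, 749 and 789 counts in untreated cells at 1, 5, 12 and 24 h, a range of 1.18-fold, and 1109, 758, 1626 and 4316 with AMG. The AMG level was 2.17 times the untreated one at 12 h (interval 2.01 to 2.35) and 5.47 times at 24 h (5.11 to 5.86), where its log2 ratio stood at rank 178 from the highest of 13498 genes. Relative to Bgn per kilobase Dcn stood at 8.01 per 100 with AMG at 24 h and at 1.10 untreated.

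Bgn and Lum had the smallest differences at 24 h. Bgn was 70678, 93104, 78250 and 74134 with AMG and 105388, 52609, 91822 and 98386 untreated, and its log2 ratio at 24 h was -0.41. Lum, with 109 to 181 counts throughout replicate 1, had ratios of 0.52, -0.23, 0.47 and -0.26 at 1, 5, 12 and 24 h. Its counting interval at 24 h, 0.68 to 1.02 for AMG to untreated, included 1.

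Between 1 and 24 h the untreated cells of replicate 1 differed less than the treated ones in Ogn, Aspn, Omd, Prelp, Fmod and Dcn. Log2 differences from 1 to 24 h in untreated cells were 0.29 for Ogn, 0.21 for Aspn, 0.31 for Prelp, 0.21 for Fmod and -0.10 for Dcn. With AMG they were -4.30, -5.30, -1.48, -1.36 and 1.96. Omd had the largest untreated difference of these, with 1.201 in untreated cells and -4.18 with AMG, from 24 reads at 1 h in untreated cells.

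Marker transcripts of other cell types also differed in replicate 1 at 24 h. The 10 tendon markers summed to 32467 normalised counts untreated and 5724 with AMG, the 10 cartilage markers to 1427 and 438, the 12 fibroblast markers to 412289 and 267329, and the 10 bone markers, of which Spp1 gave the most, to 20306 and 67517. Skeletal muscle markers summed to 821 and 359, leukocyte markers to 1136 and 404, endothelial markers to 123 and 73.8, adipocyte markers to 545 and 534, and keratinocyte markers to 55.9 and 75.6. The part of these differences in the SLRP values was not tested.

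**Figure D4:**
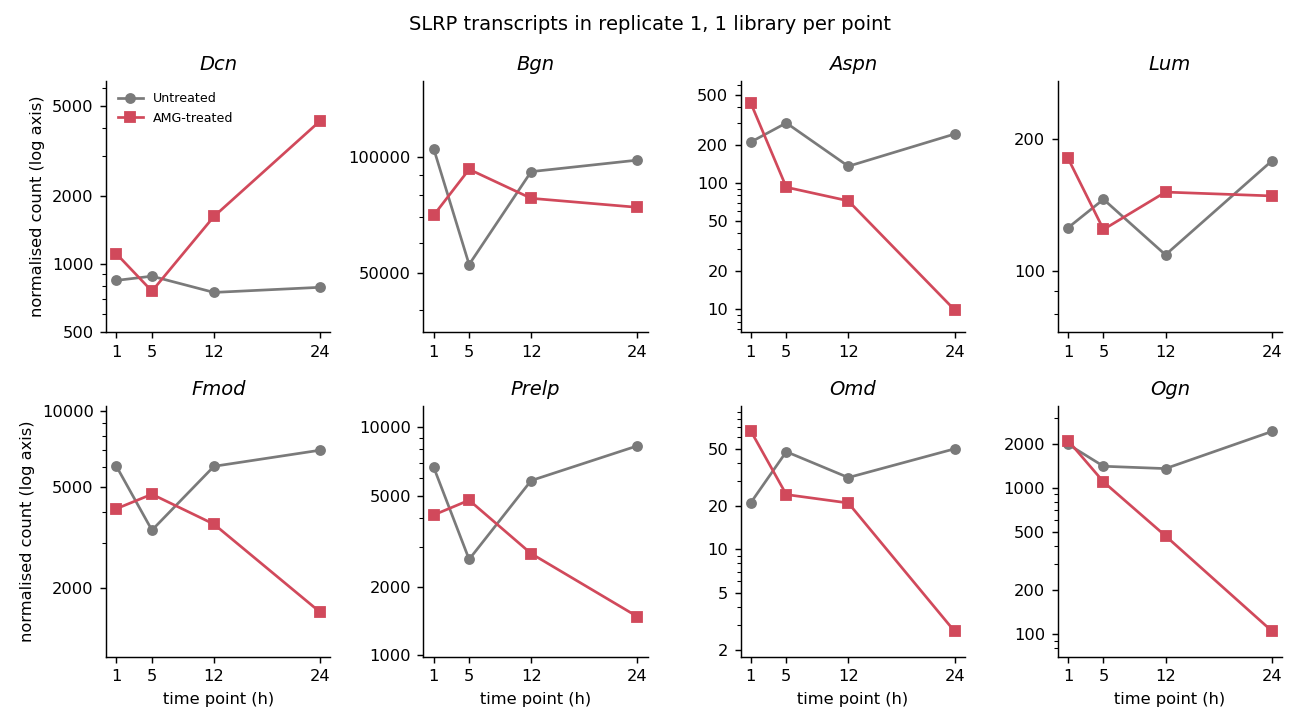
Normalised counts (log axis) of each SLRP transcript at 1, 5, 12 and 24 h in replicate 1, with 1 untreated and 1 AMG-treated library per time. With AMG, Ogn ends at 105 counts, Aspn at 9.90 and Omd at 2.70, whereas Dcn ends at 4316.

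The genes were also grouped by position, given in mm10. On chromosome 13, Ecm2, Aspn, Omd and Ogn lie in this order on the plus strand within 119.7 kb, and Aspn (49544443 to 49567565), Omd (49582462 to 49592822) and Ogn (49608046 to 49624501) are 14.9 and 15.2 kb apart. These 3 genes gave the 3 lowest SLRP ratios at 24 h. Ecm2, an SLRP-like matrix gene beside them, had 32.9 counts untreated and 12.6 with AMG, on 43 and 14 reads, a log2 ratio of -1.32. The whole stretch lies inside Cenpp on the opposite strand, which had 6.96 to 52.8 counts in replicate 1 and shares 7 exon bases with Aspn and 0 with Omd and Ogn. The strand setting of the counting was not stated.

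On chromosome 1, Optc, Prelp (133910304 to 133921414) and Fmod (134037254 to 134048277) lie within 151 kb, with Fmod on the plus strand and the other two on the minus strand. At 24 h their log2 ratios were -1.30, -2.49 and -2.13. Optc, encoding opticin, had 41.4 counts untreated and 16.2 with AMG, on 54 and 18 reads. Prelp shares 350 exon bases with the antisense gene Gm15851, which reached at most 10.2 counts.

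On chromosome 10, Dcn (97479609 to 97518143) and Lum (97565128 to 97572703) are neighbours at a distance of 47.0 kb on the plus strand, and they did not go together in replicate 1. Their 24 h ratios were 2.45 and -0.26. Kera and Epyc, further along this cluster, had 19 and 13 reads over all 14 libraries. Bgn stands alone on chromosome X (73483602 to 73495933).

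**Figure D5:**
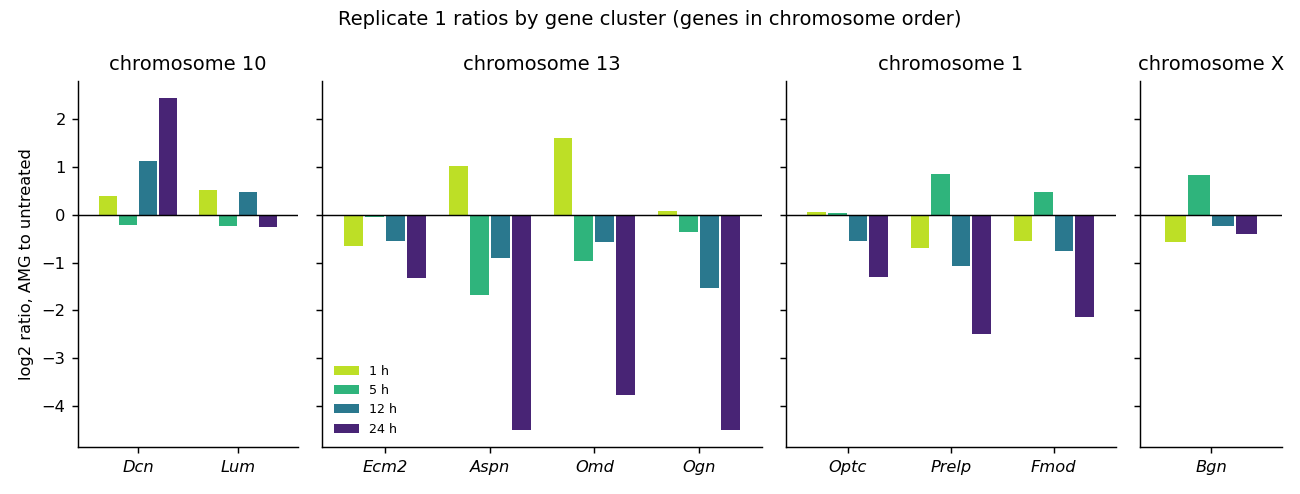
Log2 ratios of AMG-treated to untreated normalised counts (+ 1) in replicate 1 at 1, 5, 12 and 24 h, with genes in chromosome order within each cluster. At 24 h Aspn, Omd and Ogn on chromosome 13 lie between -3.78 and -4.51, Prelp and Fmod on chromosome 1 at -2.49 and -2.13, and Dcn on chromosome 10 at 2.45.

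The sequences before the start sites are shown for the 5 genes whose replicate 1 ratio was below -1 at 24 h, the time at which the 8 ratios lay furthest apart. They are the 250 bases 5′ of the RefSeq start in GRCm38.p6, the build also named mm10, and the RefSeq table used here was matched by symbol for 6 of the 8 genes, without Dcn and Lum. Capitals mark the letters TATAAA, the TATA box, and CANNTG, the E-box bound by basic helix-loop-helix factors such as scleraxis. Both strands were searched.
Ogn promoter (chr13:49607765-49608014, plus strand): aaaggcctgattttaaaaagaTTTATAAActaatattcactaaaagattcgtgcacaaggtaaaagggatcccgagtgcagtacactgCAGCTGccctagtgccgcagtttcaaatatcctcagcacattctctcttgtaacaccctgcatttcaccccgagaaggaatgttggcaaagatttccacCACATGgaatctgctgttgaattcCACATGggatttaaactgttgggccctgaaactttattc
Aspn promoter (chr13:49544193-49544442, plus strand): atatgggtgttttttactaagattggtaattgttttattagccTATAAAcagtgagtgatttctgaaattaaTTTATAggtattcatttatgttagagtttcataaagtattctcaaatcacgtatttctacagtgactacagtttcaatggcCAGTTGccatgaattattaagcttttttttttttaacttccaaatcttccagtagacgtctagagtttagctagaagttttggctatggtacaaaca
Omd promoter (chr13:49582212-49582461, plus strand): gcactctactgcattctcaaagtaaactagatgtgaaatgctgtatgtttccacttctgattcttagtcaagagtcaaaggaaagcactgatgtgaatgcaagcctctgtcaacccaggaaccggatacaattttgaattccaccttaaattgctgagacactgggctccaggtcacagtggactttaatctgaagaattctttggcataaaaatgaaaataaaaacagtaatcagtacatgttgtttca
Prelp promoter (chr1:133921402-133921651, minus strand): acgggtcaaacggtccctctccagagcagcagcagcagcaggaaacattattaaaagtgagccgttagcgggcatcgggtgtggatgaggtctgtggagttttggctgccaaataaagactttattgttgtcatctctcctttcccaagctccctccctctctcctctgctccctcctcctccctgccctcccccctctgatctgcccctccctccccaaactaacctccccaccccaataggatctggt
Fmod promoter (chr1:134037004-134037253, plus strand): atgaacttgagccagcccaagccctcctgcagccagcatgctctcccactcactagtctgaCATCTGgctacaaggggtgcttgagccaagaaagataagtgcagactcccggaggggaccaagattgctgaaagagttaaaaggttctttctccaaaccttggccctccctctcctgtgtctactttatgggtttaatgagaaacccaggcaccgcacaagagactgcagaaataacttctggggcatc

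TATAAA was found in Ogn and Aspn, beside 12.97% of 27025 promoters of this length. In Ogn a match on each strand overlaps at -229 and -227, counted from the start, and in Aspn the matches are at -207 and -178, so none is at the usual distance of a TATA box from the start. CANNTG was found at -162, -63 and -39 in Ogn, at -97 in Aspn, at -189 in Fmod and at -102 in Bgn, and 66.04% of all promoters hold it. For Ogn the RefSeq start used here lies before the GENCODE start. Its sequence ends at 49608014, whereas the GENCODE gene begins at 49608046, so the Ogn positions depend on the start chosen. No match to TGANTCA, the AP-1 letters, was found in the 6 sequences, and 6.87% of all promoters hold one. The 3 chromosome 13 sequences were poor in G and C, at 42.0% in Ogn, 30.0% in Aspn and 38.4% in Omd, below the median of 52.0% over all promoters. Prelp had 55.6%, Fmod 51.2% and Bgn 64.4%.

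The transcripts most like each gene were taken over the 14 libraries after centring log2 levels within each table, among 12844 genes. These libraries share arms and replicates, so the values are descriptions. Fmod ran closest to Comp (r = 0.99), cartilage oligomeric matrix protein, followed by Col11a1 (0.96), a minor fibril collagen, and Rgs17 (0.93). Ogn ran closest to Scara5 (0.97), a ferritin receptor of stromal cells, Pcsk5 (0.97), a proprotein convertase, and Ccdc80 (0.96). Prelp ran closest to Txndc16 (0.96), Abi3bp (0.95) and Nell2 (0.94). Lum ran closest to Cpxm2 (0.95), Mest (0.95) and Srpx2 (0.93). Bgn ran closest to the basement membrane genes Col4a2 (0.94) and Lama5 (0.94) and to Pard3b (0.94). Aspn followed Cxcl15 (0.92), Olfml3 (0.91) and Islr (0.91). Omd followed Calml4 (0.93), Vnn1 (0.91) and Sh2d4a (0.90), and Dcn followed Dtnb (0.91), Angptl7 (0.87) and Pfn2 (0.85).

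Between members, log2 levels of Prelp and Fmod correlated with r = 0.98 over the 8 libraries of replicate 1 and with 0.92 over the 6 of replicates 2 to 4. Ogn and Omd gave 0.91 and 0.87. Dcn and Ogn turned sign, at -0.92 over replicate 1 and 0.90 over replicates 2 to 4, and Dcn and Fmod likewise, at -0.90 and 0.98. Bgn and Lum gave -0.32 and -0.87.

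The other SLRP and SLRP-like genes were mostly low. Of 11, Kera, Epyc, Nyx, Chad and Nepn did not reach a mean of 10 in replicates 2 to 4, and Optc, Ecm2, Podn, Podnl1, Tsku and Chadl did. Without the block 0 of the 6 passed in limma, 0 at an unadjusted p under 0.05, and 0 in edgeR. With it, Tsku, encoding tsukushi, was higher, at 2442, 1356 and 2213 counts untreated and 2562, 2063 and 3113 with AMG (log2 fold change 0.39, adjusted p = 0.0254). Ecm2 had 67.1, 11.1 and 76.8 untreated and 36.9, 11.5 and 24.9 with AMG. Its log2 fold change was -0.80, with an adjusted p of 0.120 with the block, and Optc had 0.58 (0.284). In replicate 1 at 24 h the other SLRP genes with a mean of 10 there had a median log2 ratio of -0.48, with Podnl1 at -1.04 and Nepn at 3.27.

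Genes that act on SLRPs were described by lists chosen with earlier results of these data known. Among 18 collagens and other fibril partners, 1 was higher and 0 were lower without the block, and 1 was higher and 12 were lower with it, beside 17.9% of all genes higher and 19.3% lower in the blocked fit and 0.97% and 0.267% without the block. The higher one was Col5a3, a chain of the fibril-nucleating collagen V, with 4839, 7257 and 4837 counts untreated and 20901, 19914 and 24095 with AMG. This was a log2 fold change of 1.96, with an SE of 0.19 and a limma adjusted p of 0.0190. The 3 AMG values lay above the 3 untreated ones, as for 15.1% of all genes. In the list, the median log2 fold change was -0.55, beside -0.02 over all genes. The median log2 ratio of these fibril partners in replicate 1 at 24 h was -1.33, beside 0.02 over all genes, so a fall at that time was not particular to the SLRPs.

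Of 15 proteases and processing genes tested, 2 were higher and 0 lower without the block, and 3 were higher and 5 lower with it, beside 17.9% and 19.3% of all genes with the block, so the higher count was near the share of all genes. The 2 were matrix metalloproteinases that can cleave SLRP cores. In edgeR on recovered reads Mmp3 passed (adjusted p = 0.0277) and Mmp13 did not (0.0501). Mmp3, stromelysin 1, had 1703, 576 and 1611 counts untreated and 29623, 15542 and 39410 with AMG (log2 fold change 4.49, SE 0.50, adjusted p = 0.0190 with limma). Mmp13, collagenase 3, had 3241, 2910 and 5783 untreated and 20859, 11882 and 24182 with AMG (2.26, adjusted p = 0.0414). In replicate 1 at 24 h Mmp3 was at 1278 untreated and 171791 with AMG, and Mmp13 at 499 and 34312.

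Of 20 regulators of SLRP transcription tested, 2 were higher and 0 lower without the block, and 9 higher and 4 lower with it. Among all genes 17.9% were higher and 19.3% lower with the block, so the lower count was near the share of all genes. Nfkb1, a subunit of NF-kB, had 926, 835 and 1078 counts untreated and 3335, 2467 and 4440 with AMG (log2 fold change 1.82, adjusted p = 0.0211 with limma). Fosl1, encoding the AP-1 subunit Fra-1, had 1125, 1179 and 1064 untreated and 3117, 2432 and 3192 with AMG (1.37, adjusted p = 0.0190).

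Of the enzymes that build chondroitin and dermatan sulfate chains, 21 were tested and 0 passed without the block in limma or edgeR (1 higher and 4 lower at an unadjusted limma p under 0.05), while 4 were higher and 6 lower with it. The higher count was near the 17.9% of all genes in that fit, and 19.3% of all genes were lower. The largest differences were those of Chsy3, a chondroitin synthase, with 337, 223 and 682 counts untreated and 144, 134 and 287 with AMG (log2 fold change -1.06, block adjusted p = 0.00138), and of Dsel (-0.83, 0.00360) and Dse (-0.59, 0.00692), both epimerases that turn chondroitin into dermatan sulfate. Chst7, a sulfotransferase, was higher (0.56, 0.00821). For Dsel the groups did not overlap, with 736, 675 and 805 untreated and 331, 516 and 418 with AMG, as for 13.6% of all genes in that direction.

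For keratan sulfate 7 genes were tested, 0 passed without the block in limma or edgeR (1 lower at an unadjusted limma p under 0.05), and 1 was lower with it, where 19.3% of all genes were. This was Chst1, which sulfates galactose in the chain, with 272, 341 and 349 counts untreated and 81.4, 323 and 106 with AMG (log2 fold change -1.17, adjusted p = 0.215 without and 0.0129 with the block, limma). AMG replicate 3 stood near its untreated library.

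Of 22 receptors and bound ligands tested, 0 passed without the block in limma or edgeR (5 higher and 6 lower at an unadjusted limma p under 0.05), and 7 were higher and 9 lower with it, where 17.9% of all genes were higher and 19.3% lower. Pdgfb had 137, 27.8 and 96.3 counts untreated and 788, 112 and 851 with AMG (log2 fold change 2.54, block adjusted p = 7.74e-05), Itga2 had a log2 fold change of 2.14 (0.00181) and Cd14, a co-receptor of the toll-like receptors that bind biglycan, of 1.93 (3.17e-05). Bmp4, a ligand bound by several SLRPs, had 1022, 698 and 2890 untreated and 209, 227 and 940 with AMG (-1.84, 4.61e-05).

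Among 20 other proteoglycans tested, 0 passed without the block in limma or edgeR (2 higher and 0 lower at an unadjusted limma p under 0.05), and 6 were higher and 4 lower with it. Of all genes 17.9% were higher and 19.3% lower, and the lower count was near that share. Sdc4, the transmembrane syndecan 4, had 7696, 5190 and 10311 counts untreated and 20051, 8369 and 25967 with AMG (log2 fold change 1.13, block adjusted p = 0.000457). Gpc1, glypican 1, did not overlap between the groups, as 15.1% of all genes did not in that direction, with 6167, 4059 and 5944 untreated and 11325, 8437 and 11706 with AMG (0.97, 9.99e-05). Esm1 (1.16, 0.0377) and Srgn (0.69, 0.0320) were also higher.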

How the data were processed

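RNA of 14 libraries was sequenced from stranded poly(A) libraries. The submitters' processing notes name mm10, TopHat2 2.0.13, HTSeq 0.5.3p3 and DESeq without their roles. The study's methods, written for another deposit, use them for alignment, for counting uniquely mapped 50-base single reads per gene and for testing. The authors deposited a normalised signal, whole read counts divided by a size factor per library, in 2 separately scaled tables. The annotation release and strand setting are not given in the sources used here. All values came out as whole reads (tolerance 0.1) once divided by the step of their library. A floor of 3 reads was used, and intervals cover counting error only.

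The main test was limma 3.58.1 (trend, two-sided) on log2(normalised count + 1) for 3 AMG-treated against 3 untreated 5 h libraries, on 13096 genes with a mean of at least 10, and a gene was called at a Benjamini-Hochberg adjusted p under 0.05. The log2(value + 1) scale understates changes of low genes. Whether replicate numbers pair libraries was checked on deviations from group means (r = 0.65 to 0.76 for the same number, -0.59 to 0.12 otherwise), and blocked fits are given where they change a call. Replicate 1 has no test. edgeR 4.0.16 and DESeq2 1.42.0 were run on the recovered reads. limma and edgeR, each with and without the block, DESeq2, and limma with length correction were tested on simulated counts. Those counts held no replicate effect, so they do not test the block on paired libraries. The other fits were not simulated. Lengths, positions and overlaps came from GENCODE vM21 (mm10). Levels per kilobase used the longest APPRIS principal transcript per gene. Length corrections and the rho with exon length used all exons of a gene merged. For Bgn these lengths are 2.419 and 6.099 kb. The members and gene lists were chosen with earlier results of these data known. Named genes were all members and, per list, up to 4 genes with the largest log2 fold change among those called without the block or, where none was, with it. For each member, the 3 genes with the highest Pearson r over the libraries were named as well.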

Additional observations from a re-analysis of the deposited data

Results flagged for a closer look

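In replicate 1 at 5 h the log2 ratio of AMG-treated to untreated was 0.82 for Bgn and 0.86 for Prelp, far from the other 3 replicates, which lay between -0.25 and -0.18 for Bgn and between -0.63 and -0.45 for Prelp. The gap took 0.938 and 0.879 of the whole range, above Dixon's 95% critical value for 4 samples. These were 2 of 24 groups of 4 values searched, where chance flags about 1 in 20.

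For 3 genes all 4 replicates were lower with AMG at 5 h while replicate 1 was higher at another time, a difference that was not tested. Aspn had a log2 ratio of 1.02 at 1 h against -1.68 to -0.95 at 5 h. Ogn had 0.086 at 1 h against -1.36 to -0.35 at 5 h, and its counting interval at 1 h, 0.99 to 1.14 as a ratio, included 1. It was -0.12 with reads per library total and -0.16 after length correction. Lum had 0.52 at 1 h and 0.47 at 12 h against -0.60 to -0.11 at 5 h. After length correction the replicate 1 ratio at 5 h was -0.0016 for Ogn and 0.16 for Lum, so the contrast in direction was lost for both and held for Aspn (0.70 at 1 h, -1.27 at 5 h).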

How the results depend on the processing

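The count of SLRP genes lower with AMG at 5 h was 0 in the fit without the block and stayed at 0 under each alternative that kept the replicate number out. It was 5 with the replicate block and 5 with length correction and block, 4 with edgeR and the block, and 1 with edgeR on 4 replicates and the block. The shares of all genes called lower in these blocked fits were 19.3%, 16%, 18.6% and 1.29%, in the same order. In blocked fits added after the data were seen the count was 2, 4 and 4 without the pair of replicate 2, 3 and 4. For those added fits the share of all genes was not taken. The count of higher genes was 0 throughout. The block changed no call of Dcn, Bgn or Omd.

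With the replicate block alone the log2 fold changes that passed were -0.32 (Lum), -0.32 (Fmod), -1.16 (Ogn), -1.15 (Aspn) and -0.54 (Prelp). With length correction and the replicate block they were -0.46, -0.39, -1.29, -1.29 and -0.58. With edgeR and the replicate block they were -0.31 (Fmod), -1.16 (Ogn), -1.13 (Aspn) and -0.53 (Prelp), and on 4 replicates -1.29 (Aspn), where Bgn was 0.052, a turn of sign. In blocked fits without the pair of replicate 2, Ogn was -1.18 and Prelp -0.50, and Omd turned to 0.091. Without that of replicate 3, Fmod was -0.30, Ogn -1.25, Aspn -1.20 and Prelp -0.59. Without that of replicate 4, Lum was -0.43, Ogn -1.07, Aspn -0.999 and Prelp -0.54.

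Leaving out each of the 6 libraries in turn gave a median between -1.22 (without Untreated 5h replicate 3) and -0.031 (without AMG-treated 5h replicate 3). The members ranged from -0.66 to 0.39 (Dcn), from -0.44 to 0.031 (Bgn), from -1.41 to 0.89 (Lum), from -1.50 to 0.88 (Fmod), from -1.94 to -0.47 (Ogn), from -1.76 to -0.61 (Aspn), from -0.98 to -0.14 (Prelp), from -1.17 to 0.16 (Omd).

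The median log2 fold change of the 8 genes was -0.32, and -0.47 with length correction, with or without the replicate block. In replicate 1 the median at 1 h was 0.029 with reads per library total and 0.034 after length correction, each with 4 genes higher in place of 5, at 5 h 0.079 after length correction, with 4 higher in place of 3, and at 24 h -2.18 with a pseudocount of 10 and -1.96 with reads per library total, where the added 1 weighs more on low values. The cause of the other shifts was not tested.

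With the replicate block the pathway counts were 1 higher for the other SLRP genes, 6 higher and 4 lower for other proteoglycans, 4 and 6 for chondroitin and dermatan sulfate synthesis, 1 lower for keratan sulfate synthesis, 1 higher and 12 lower for fibril partners, 3 and 5 for processing and cleavage, 7 and 9 for receptors and ligands, and 9 and 4 for regulators. With edgeR on recovered reads 1 processing gene (Mmp3) was higher, in place of 2.

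Depth limits Omd and Aspn with AMG at 24 h, with 3 and 11 reads. It also limits Omd at 5 h in replicate 3, with 5 reads untreated and 13 with AMG.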
